A study of Mus musculus with 6 samples.

Results

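A group of 28 genes had a low mean RNA level in Control oocytes, for some of them resting on 1 library. All stood more than 3 times above the highest Control library in every library of oocytes with the Rpa1 knockout. In order of the gap between the groups, those described here are Trim29, Ms4a10, S100a16, Ifitm10, Afg1l, Wdr41, Kbtbd12, Ptgds, Fkbp9, Pik3r2, Slc23a3, Sytl1, Cpped1, Klhl20, Gtpbp8, Gtf3c4, Cramp1l, Tedc1, Ddx20, Xkr8, Wls, Plk2, Itpr3, Camk1g, Psph, Slc26a5 and Ccdc30. They were chosen from the 49315 genes of the count table by their level in CPM, the read count of a gene scaled to the total count of its library. A gene had to average at least 1 CPM over the Control libraries, which 13238 genes did, and its lowest OcKO value had to exceed 3 times its highest Control value. That left 37 genes. Of these, 9 were set aside by name: 5 listed genes (Btg2, Ccng1, Sesn2, Calb1 and Tex19.2), 3 with provisional symbols and 1 zinc finger gene. The choice used the OcKO and Control values themselves, so the difference between the groups is described here and not tested.

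The OcKO group is 3 mice with an oocyte-specific conditional knockout of Rpa1, and the Control group is 3 mice called Control, whose alleles, like the Cre driver, were not given in the sources used here. All animals were 4 to 5 weeks old and primed with PMSG (pregnant mare serum gonadotropin), and each library holds about 20 fully grown germinal vesicle (GV) oocytes of 1 mouse, freed of cumulus cells. A GV oocyte is the immature egg arrested in meiotic prophase with its nucleus intact. Total RNA was made into libraries with a low-input kit that does not mark the strand.

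Replication protein A coats single-stranded DNA in replication, recombination and repair, and Rpa1 encodes its large subunit. A fully grown oocyte transcribes little and lives on messages stored while it grew, so its RNA level of a gene reflects earlier synthesis and later decay. In oocytes, unrepaired DNA breaks are known to activate checkpoint kinases and the p53 family of transcription factors, which raise genes of growth arrest and of cell death. The 28 genes encode calcium and kinase signalling proteins, parts of the cell death machinery, membrane and vesicle proteins, ubiquitin ligase adaptors, enzymes of mitochondria and the endoplasmic reticulum, and factors of RNA synthesis and processing.

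Library totals were 36280148 to 44575222 counts, so 1 count was worth 0.0224 to 0.0276 CPM. Rpa1 (ENSMUSG00000000751, chromosome 11, 75298166 to 75348324, minus strand, GRCm38) stood at 8.06, 4.22 and 7.66 CPM in OcKO replicates 1 to 3, against 149.6, 142 and 133 CPM in Control replicates 1 to 3, and the groups did not overlap. It fell by 4.59 on the log2 scale (SE 0.31, edgeR quasi-likelihood test, adjusted p = 0.0064). The 14 oocyte markers summed to 28362 to 35537 CPM in OcKO and 32371 to 49065 CPM in Control. Of the granulosa and cumulus markers, 7 of 22 were under 1 CPM in every library, among them Foxl2 and Amh. Others were present in every library. Slc18a2, the most abundant of the list, ran from 29.3 to 58.3 CPM over the libraries of both groups. Over the same libraries Cyp19a1 ran from 9.26 to 33.7 CPM, Nr5a2 from 11.9 to 43.7 CPM and Inha from 9.94 to 44.5 CPM. The list summed to 147 to 187 CPM in OcKO and 118 to 181 CPM in Control. The endothelial list summed to 156 to 254 CPM in OcKO and 104 to 163 CPM in Control, with Cdh5 at 0 counts in all but 1 library. Pecam1, the most abundant of the list, stood at 128, 84.1 and 112 CPM in OcKO and 103, 67.5 and 119 CPM in Control. Tek stood at 119, 50.1 and 55.1 CPM in OcKO and 35.2, 29.5 and 24.4 CPM in Control, without overlap. The theca and stroma list summed to 20.2 to 41.5 CPM in OcKO and 13.8 to 31.9 CPM in Control. Immune markers summed to 12.4 to 16.3 CPM in OcKO and 6.69 to 16.4 CPM in Control. Surface epithelium markers summed to 37.0 to 46.9 CPM in OcKO and 16.5 to 44.5 CPM in Control. Erythrocyte markers summed to 0.142 to 1.95 CPM in OcKO and 0.345 to 2.63 CPM in Control. No gene on any of these marker lists is among the 28, and the part of other cells in the levels of the 28 was not tested. With pooled oocytes, fewer cells with a transcript and less of it per cell cannot be told apart.

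Summed over the 28 genes, the OcKO libraries held 1622, 949 and 1513 CPM (replicates 1 to 3) and the Control libraries 147, 120.1 and 129 CPM. The mean level of a gene over its group ran from 10.6 to 152 CPM in OcKO (median 30.1) and from 1.02 to 16.6 CPM in Control (median 2.79). The fold of the means ran from 4.14 for Wls to 108 for Trim29, with a median of 9.64. In Control the median gene of the 28 ranked above 17.6% of the 13238 expressed genes, and in OcKO above 57.2%. The genes were therefore among the weaker transcripts of Control oocytes and of middling rank in OcKO oocytes.

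**Figure D1:**
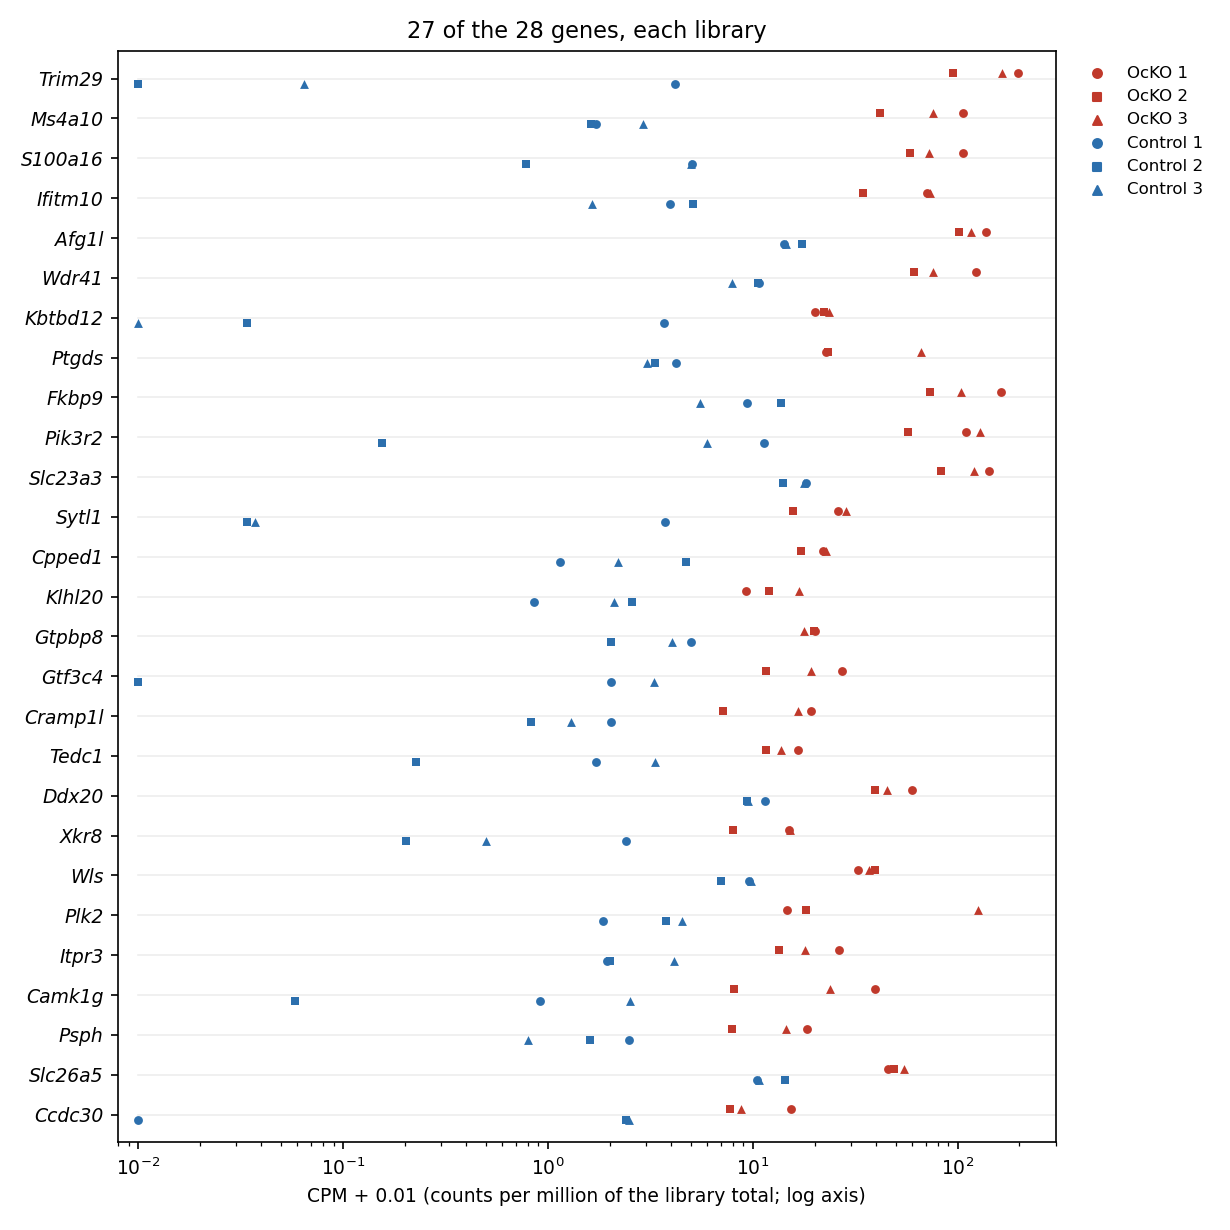
Level of 27 of the 28 genes in every library, in CPM plus 0.01 on a log axis, with genes in order of the ratio of lowest OcKO to highest Control value. Red marks are OcKO and blue marks are Control libraries, with the shape giving the replicate. Trim29, Kbtbd12 and Sytl1 have 1 Control library near 4 CPM and the others near 0, while Plk2 and Ptgds have OcKO replicate 3 far to the right of the other OcKO libraries.

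The ratio of the lowest OcKO to the highest Control value was largest for Trim29 (22.9), Ms4a10 (14.4), S100a16 (11.5) and Ifitm10 (6.73), and its median was 3.61. Just inside the threshold lay Itpr3 (3.24), Camk1g (3.22), Psph (3.22), Slc26a5 (3.19) and Ccdc30 (3.10). Just outside lay Ninl (2.98), Rexo4 (2.98), Arf2 (2.97), Plbd1 (2.97) and Cox15 (2.92), at ratios hardly different from those inside. Ninl stood at 27.0, 12.9 and 34.1 CPM in the OcKO libraries and 0, 0.121 and 4.32 CPM in the Control libraries, and Rexo4 at 79.7, 49.2 and 59.4 CPM in the OcKO libraries and 14.7, 15.5 and 16.5 CPM in the Control libraries. Arf2, a gene of an ADP-ribosylation factor, stood at 23.6, 17.7 and 21.9 CPM in the OcKO libraries and 0.0531, 4.49 and 5.95 CPM in the Control libraries. Plbd1 stood at 9.10, 13.4 and 13.1 CPM in the OcKO libraries and 0.133, 3.07 and 0.164 CPM in the Control libraries, and Cox15, an enzyme gene of heme A synthesis, at 15.3, 12.6 and 12.5 CPM in the OcKO libraries and 4.30, 0.145 and 1.86 CPM in the Control libraries. Of these, Rexo4 alone had Control libraries above 10 CPM, and all 5 had groups without overlap. The 28 genes are 0.212% of the 13238 expressed genes, and the 37 before names were set aside 0.279%. The rule turned round, with the lowest Control value over 3 times the highest OcKO value, held for 14 genes, or 0.106%. It is not a true mirror, since the minimum of 1 CPM stayed on the Control mean. Genes silent in the low group were thus left out only for the raised genes, and the shares are not like for like. With no fold asked for, every OcKO library was above every Control library for 11.8% of expressed genes and below for 6.07%. These shares carry the same minimum.

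**Figure D2:**
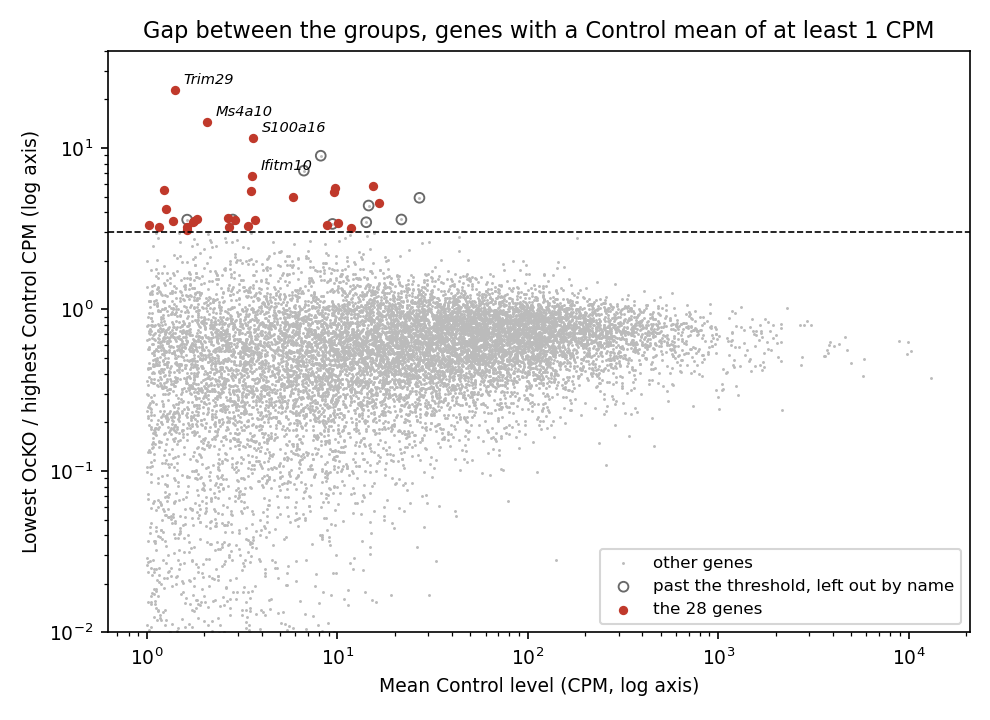
Ratio of the lowest OcKO to the highest Control CPM (log axis) against the mean Control CPM (log axis) for the 13238 genes with a Control mean of at least 1 CPM, without the 772 whose ratio is under 0.01. Red points are the 28 genes, open circles the 9 set aside by name, and the dashed line is the threshold of 3, just above which most of the red points lie.

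The start regions of the 28 genes, where known, ran from CpG-free to CpG-rich. RefSeq windows (GRCm38.p6) from 250 bases before to 50 bases after a transcript start were found for 24 of the 28 genes, 29 windows in all. Their CpG content was measured as the observed number of CG pairs over that expected from the C and G content, and ran from 0 for Ms4a10 to 1.02 for Ddx20. In Ms4a10, Camk1g, Ptgds, S100a16, Sytl1 and Slc23a3 every window had a ratio under 0.4, a limit chosen after the values were seen. These are 6 of 24 genes, or 25.0%, against 15.6% of the 9599 expressed genes with a window. The median was 0.73 over the 29 windows and 0.737 over the 12274 windows of expressed genes. Genes on both sides of 0.4 were found among the 4 called by the test described further on. Their windows are printed for that reason, 5′ to 3′ on the strand of the gene, with every CG pair in capitals. The window of Ms4a10 (chr19:10974651-10974950, minus strand) holds 0 CG pairs, that of Slc23a3 (chr1:75133841-75134140, minus strand) 6, that of Afg1l (chr10:42478516-42478815, minus strand) 16 and that of Wdr41 (chr13:94976094-94976393, plus strand) 23.
Ms4a10: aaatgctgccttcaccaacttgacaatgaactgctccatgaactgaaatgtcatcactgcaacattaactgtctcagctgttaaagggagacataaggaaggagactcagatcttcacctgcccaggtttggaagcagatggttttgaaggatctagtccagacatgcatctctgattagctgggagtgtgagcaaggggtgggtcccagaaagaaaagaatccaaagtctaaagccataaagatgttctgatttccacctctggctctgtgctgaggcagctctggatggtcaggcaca
Slc23a3: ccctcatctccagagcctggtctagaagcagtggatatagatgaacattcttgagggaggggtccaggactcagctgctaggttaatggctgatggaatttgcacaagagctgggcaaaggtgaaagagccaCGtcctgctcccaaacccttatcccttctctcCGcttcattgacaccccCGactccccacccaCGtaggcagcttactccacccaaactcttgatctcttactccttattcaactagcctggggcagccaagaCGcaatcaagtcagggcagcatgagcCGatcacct
Afg1l: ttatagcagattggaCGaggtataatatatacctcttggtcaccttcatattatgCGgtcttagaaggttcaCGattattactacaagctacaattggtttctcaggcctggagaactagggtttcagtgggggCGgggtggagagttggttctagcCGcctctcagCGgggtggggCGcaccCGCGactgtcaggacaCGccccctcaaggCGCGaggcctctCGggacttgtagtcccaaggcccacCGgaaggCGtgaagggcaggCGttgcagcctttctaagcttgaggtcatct
Wdr41: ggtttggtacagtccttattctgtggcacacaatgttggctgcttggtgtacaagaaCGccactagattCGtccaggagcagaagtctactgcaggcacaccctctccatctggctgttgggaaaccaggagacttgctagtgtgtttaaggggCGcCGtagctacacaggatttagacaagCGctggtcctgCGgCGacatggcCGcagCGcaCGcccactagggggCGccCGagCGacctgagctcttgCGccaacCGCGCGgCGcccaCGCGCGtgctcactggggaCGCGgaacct

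**Figure D3:**
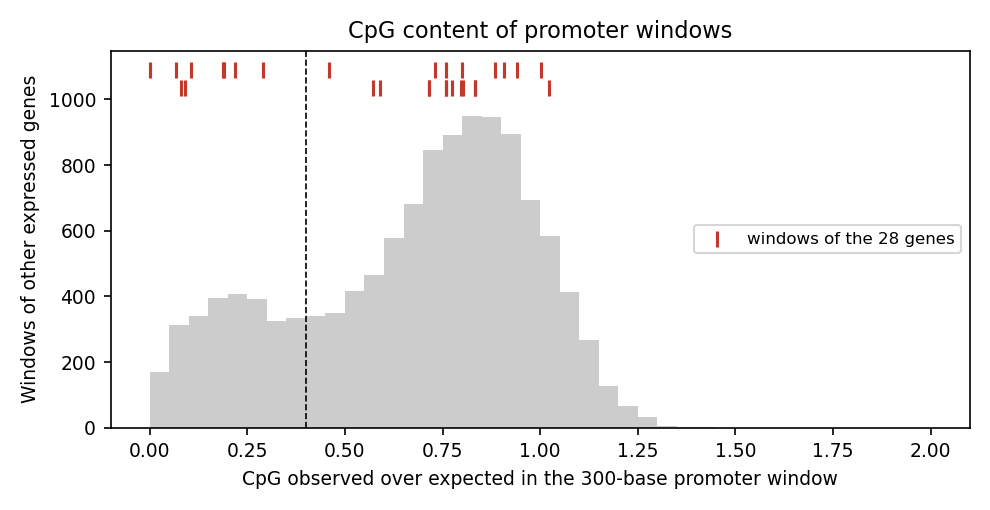
Observed over expected CpG in 300-base windows around transcript starts (x axis) for the expressed genes outside the group (grey, number of windows on the y axis) and for the 29 windows of the 28 genes (red marks, set at 2 heights only so that they can be told apart). The dashed line marks 0.4, and the red marks lie on both sides of it, as the grey windows do.

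The same windows were searched for the p53 half-site, the element of which p53 family proteins usually bind a pair, on both strands. It was found in 2 of the 29 windows (6.90%), those of Sytl1 and Pik3r2, and in 6.90% of the 12274 windows of expressed genes. The share among the 28 genes was thus that of expressed genes at large. The match is a description of the letters in these windows, and p53 family sites in introns or farther upstream are outside them. Both windows are printed with the half-site in capitals. In Sytl1 (chr4:133263038-133263337, minus strand) it begins at position -241 from the transcript start, and in Pik3r2 (chr8:70776663-70776962, minus strand) at position -97.
Sytl1: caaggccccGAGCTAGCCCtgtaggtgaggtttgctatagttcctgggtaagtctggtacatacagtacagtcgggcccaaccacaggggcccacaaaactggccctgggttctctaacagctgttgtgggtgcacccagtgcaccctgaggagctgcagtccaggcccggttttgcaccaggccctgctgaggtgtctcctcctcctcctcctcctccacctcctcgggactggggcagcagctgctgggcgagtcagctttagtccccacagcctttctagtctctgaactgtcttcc
Pik3r2: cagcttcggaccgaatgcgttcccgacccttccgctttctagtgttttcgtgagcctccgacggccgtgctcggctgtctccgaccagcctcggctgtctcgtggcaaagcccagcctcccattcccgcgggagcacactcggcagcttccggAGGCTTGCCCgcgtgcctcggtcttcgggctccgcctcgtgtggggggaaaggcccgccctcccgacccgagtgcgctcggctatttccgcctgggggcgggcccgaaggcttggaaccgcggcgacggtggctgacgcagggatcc

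Other motifs, searched on both strands, were held by shares of the 29 windows that can be set beside those of the 12274 windows. TATAAA was in 10.3% against 7.66%, CCAAT in 24.1% against 38.1%, GGGCGG in 55.2% against 58.8%, and TGACGTCA, the cAMP response element, which reads the same on both strands, in 3.45% against 3.01%. The 1 window with TGACGTCA was that of Plk2. These are counts of letters in the windows and show no binding.

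Calcium and kinase signalling genes made up the first set. S100a16 (ENSMUSG00000074457, chromosome 3, 90537254 to 90543151, plus strand) encodes a calcium-binding EF-hand protein and stood at 106, 58.2 and 72.3 CPM in OcKO replicates 1 to 3, against 5.07, 0.773 and 5.00 CPM in Control replicates 1 to 3. The lowest OcKO library was well above both Control libraries near 5 CPM, and the group means differed 21.8-fold. Itpr3 (ENSMUSG00000042644, chromosome 17, 27057304 to 27122223, plus strand), a receptor through which inositol trisphosphate releases calcium from the endoplasmic reticulum, stood at 26.4, 13.4 and 18.0 CPM in the OcKO libraries and 1.94, 2.00 and 4.12 CPM in the Control libraries. Camk1g, a calcium and calmodulin-dependent protein kinase gene, stood at 39.6, 8.10 and 23.8 CPM in the OcKO libraries and 0.902, 0.0483 and 2.51 CPM in the Control libraries. Both genes were lowest in OcKO replicate 2, and Camk1g spread 4.89-fold among the OcKO libraries, a wide gap beside the median of 1.93-fold over the 28 genes.

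Pik3r2 (ENSMUSG00000031834, chromosome 8, 70768176 to 70776713, minus strand) encodes the p85 beta regulatory subunit of phosphoinositide 3-kinase, the lipid kinase upstream of AKT in oocyte growth. It stood at 109.8, 56.8 and 129 CPM in OcKO replicates 1 to 3, against 11.4, 0.145 and 5.98 CPM in Control replicates 1 to 3. Control replicate 2 was nearly empty of this transcript while Control replicate 1 held the most. Cpped1, a calcineurin-like phosphoesterase gene, averaged 20.7 ± 3.01 CPM in OcKO and 2.67 ± 1.82 CPM in Control (SD, n = 3 each).

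Plk2 (ENSMUSG00000021701, chromosome 13, 110395044 to 110400844, plus strand), a polo-like kinase gene and a known p53 target, stood at 14.7, 18.2 and 125 CPM in OcKO replicates 1 to 3, against 1.86, 3.77 and 4.51 CPM in Control replicates 1 to 3. OcKO replicate 3 held far more than the other OcKO libraries, and its 8.49-fold excess over OcKO replicate 1 was the widest spread of the 28 genes. Without OcKO replicate 3 the fitted log2 fold change of Plk2 was 2.15, in place of 3.73 (SE 0.90).

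Among genes of cell death, Xkr8 encodes the scramblase that exposes phosphatidylserine on dying cells once caspases cleave it. It stood at 15.0, 8.01 and 15.2 CPM in the OcKO libraries and 2.39, 0.193 and 0.492 CPM in the Control libraries, with only Control replicate 1 above 1 CPM among the Control libraries. RNA levels do not show whether scramblase activity differed, which was not measured.

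A list of 37 apoptosis regulators was read beside these values. The quasi-likelihood test of edgeR was fitted over 16060 genes and called 22 genes higher in OcKO (0.137%) and 1 lower (0.00623%), at an adjusted p under 0.05. It tested 27 genes of the list, of which 1 rose and 0 fell. That gene was Pmaip1, which encodes the BH3-only protein Noxa, with 691, 999 and 2813 counts in the OcKO libraries and 7, 2 and 3 counts in the Control libraries (adjusted p = 0.0383). Without the adjustment, 5 genes of the list had p under 0.05 on the higher side and 1 on the lower, where 952 (5.93%) and 837 (5.21%) of all 16060 genes did. DESeq2, which called 2.99% of genes higher and 1.71% lower, had 2 and 1 of the list, and limma voom none. Over the 27 genes the median log2 fold change was 0.53, against 0.01 over all genes tested.

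Plk2 was the only 1 of the 28 on a list of 59 p53 target genes, 1.69% of that list. Before names were set aside, 4 genes of the list met the rule: Plk2, Btg2, Ccng1 and Sesn2. Of 48 listed genes tested, edgeR called 4 higher and 0 lower, and with any 1 library left out it called 0 of them. The 4 were the growth arrest gene Btg2 (log2 fold change 2.96, SE 0.36, adjusted p = 0.045), the p53 ubiquitin ligase gene Mdm2 (1.89, SE 0.23, adjusted p = 0.045), the receptor gene Eda2r (adjusted p = 0.0313) and Pmaip1. Eda2r had 555, 689 and 674 counts in the OcKO libraries and 0, 0 and 1 in the Control libraries. Without the adjustment, 18 genes of the list had p under 0.05, all on the higher side, where 5.93% of all genes were on the higher and 5.21% on the lower side. DESeq2 found 15 and limma voom 0, with none lower by either tool. Over the 48 genes the median log2 fold change was 0.80, and 39 had a positive value. Of the 13238 expressed genes, 40 are on the p53 list. Since Btg2, Ccng1 and Sesn2 were removed by name, the count of 1 among the 28 says nothing about p53 targets in the group. The lists of immediate early genes, integrated stress response, zygotic genome activation, epithelial junctions, cholesterol synthesis and oocyte growth hold 0 of the 28, and nothing is read from lists this short.

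Membrane and vesicle proteins included the gene with the highest OcKO level per length. Ms4a10 (ENSMUSG00000024731, chromosome 19, 10962293 to 10974670, minus strand), of the family of membrane proteins with 4 spans that includes CD20, stood at 106, 41.7 and 75.9 CPM in OcKO replicates 1 to 3, against 1.70, 1.62 and 2.90 CPM in Control replicates 1 to 3. Its Control libraries were even and low, the OcKO libraries lay far above them, and per kilobase of exon its mean level was 73.6 CPM per kb against 2.05 CPM per kb in Control. The CpG-free start region printed above belongs to it. Ifitm10 (ENSMUSG00000045777, chromosome 7, 142325837 to 142373753, minus strand), a gene of the interferon-induced transmembrane family, stood at 70.6, 34.5 and 73.3 CPM in OcKO replicates 1 to 3, against 3.93, 5.12 and 1.64 CPM in Control replicates 1 to 3. OcKO replicate 2 held less than the other OcKO libraries but was 6.73 times the highest Control value.

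Slc23a3 (ENSMUSG00000026205, chromosome 1, 75125541 to 75133890, minus strand), an orphan member of the ascorbate transporter family, stood at 142, 82.6 and 121 CPM in OcKO replicates 1 to 3, against 18.1, 14.0 and 17.8 CPM in Control replicates 1 to 3. It had the highest Control mean of the 28 with 115 ± 30.1 CPM in OcKO and 16.6 ± 2.32 CPM in Control (SD, n = 3 each), so its gap does not rest on values near 0. Slc26a5 (ENSMUSG00000029015, chromosome 5, 21810655 to 21865604, minus strand), which encodes prestin, the motor protein of cochlear outer hair cells, stood at 45.6, 49.1 and 54.4 CPM in OcKO replicates 1 to 3, against 10.5, 14.3 and 10.8 CPM in Control replicates 1 to 3. Its OcKO libraries lay within 1.19-fold of each other and the means differed 4.19-fold, near the smallest of the group.

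Sytl1 (ENSMUSG00000028860, chromosome 4, 133253090 to 133263113, minus strand), a synaptotagmin-like partner of Rab27 in vesicle traffic, stood at 26.0, 15.6 and 28.6 CPM in OcKO replicates 1 to 3, against 3.71, 0.0242 and 0.0273 CPM in Control replicates 1 to 3. Its Control mean rests on replicate 1, as in Trim29 and Kbtbd12. Wls, the carrier that brings Wnt proteins to the cell surface, averaged 36.3 ± 3.60 CPM in OcKO and 8.77 ± 1.53 CPM in Control (SD, n = 3 each), and its OcKO libraries lay within 1.22-fold. By CPM it was the only 1 of the 28 genes that was highest in OcKO replicate 2.

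Genes of ubiquitin ligase proteins and their relatives included the largest fold of the group. Trim29 (ENSMUSG00000032013, chromosome 9, 43310848 to 43336115, plus strand) encodes a tripartite motif protein without the RING domain typical of its family, abundant in stratified epithelia. It stood at 197, 95.3 and 164 CPM in OcKO replicates 1 to 3, against 4.17, 0 and 0.0546 CPM in Control replicates 1 to 3. All 3 OcKO libraries were near or above 95 CPM, while 157 of the 159 Control counts were in Control replicate 1. Without that library the fitted log2 fold change was 12.2, in place of 6.61 (SE 1.58), and the Control mean no longer reached 1 CPM.

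Kbtbd12 (ENSMUSG00000033182, chromosome 6, 88545114 to 88637950, minus strand), a kelch and BTB domain gene, stood at 20.1, 22.3 and 23.5 CPM in OcKO replicates 1 to 3, against 3.66, 0.0242 and 0 CPM in Control replicates 1 to 3. The OcKO libraries lay within 1.17-fold of each other and Control replicate 1 held nearly all Control counts. Klhl20, which encodes a substrate adaptor of the cullin 3 ubiquitin ligase, averaged 12.7 ± 3.84 CPM in OcKO and 1.84 ± 0.886 CPM in Control (SD, n = 3 each).

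Genes of mitochondria, lysosomes, the endoplasmic reticulum and metabolism came next. Afg1l (ENSMUSG00000038302, chromosome 10, 42312585 to 42478565, minus strand), a mitochondrial AAA ATPase gene, stood at 138, 101 and 116 CPM in OcKO replicates 1 to 3, against 14.2, 17.4 and 14.5 CPM in Control replicates 1 to 3. Both groups were tight, with 118 ± 18.5 CPM in OcKO and 15.4 ± 1.79 CPM in Control (SD, n = 3 each), a fold of 7.69. Wdr41 (ENSMUSG00000042015, chromosome 13, 94976344 to 95023314, plus strand), the lysosomal partner of C9orf72 and SMCR8, stood at 122, 61.0 and 75.9 CPM in OcKO replicates 1 to 3, against 10.7, 10.5 and 7.95 CPM in Control replicates 1 to 3. Every OcKO library exceeded 60 CPM and no Control library reached 11 CPM.

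Fkbp9 (ENSMUSG00000029781, chromosome 6, 56832059 to 56879358, plus strand), a peptidyl-prolyl isomerase of the endoplasmic reticulum, stood at 163, 73.0 and 104 CPM in OcKO replicates 1 to 3, against 9.39, 13.7 and 5.54 CPM in Control replicates 1 to 3. Ptgds (ENSMUSG00000015090, chromosome 2, 25466709 to 25470046, minus strand), the lipocalin-type synthase of prostaglandin D2, stood at 22.7, 23.3 and 66.5 CPM in OcKO replicates 1 to 3, against 4.19, 3.31 and 3.03 CPM in Control replicates 1 to 3. Fkbp9 was highest in OcKO replicate 1, as were most of the 28, whereas Ptgds was highest in replicate 3 and nearly equal in the others. Psph (ENSMUSG00000029446, chromosome 5, 129765558 to 129787449, minus strand), the phosphatase of the last step of serine synthesis, stood at 18.3, 7.94 and 14.6 CPM in OcKO replicates 1 to 3, against 2.47, 1.59 and 0.792 CPM in Control replicates 1 to 3. Gtpbp8, a GTP-binding protein gene, averaged 19.3 ± 1.27 CPM in OcKO and 3.68 ± 1.51 CPM in Control (SD, n = 3 each), and its OcKO libraries lay within 1.13-fold, the closest of the 28.

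The remaining genes act in RNA synthesis and processing, chromatin and centrioles. Ddx20 (ENSMUSG00000027905, chromosome 3, 105678270 to 105687574, minus strand) encodes Gemin3, a DEAD-box helicase of the SMN complex that assembles splicing ribonucleoproteins, and stood at 59.8, 39.4 and 44.9 CPM in OcKO replicates 1 to 3, against 11.4, 9.37 and 9.48 CPM in Control replicates 1 to 3. The Control libraries were nearly equal, and each OcKO library was more than 3 times as high. Gtf3c4, a subunit gene of the RNA polymerase III factor TFIIIC, averaged 19.4 ± 7.79 CPM in OcKO and 1.76 ± 1.65 CPM in Control (SD, n = 3 each), with 0 counts in Control replicate 2. Cramp1l, the homologue of the fly chromatin gene cramped, averaged 14.3 ± 6.37 CPM in OcKO and 1.37 ± 0.603 CPM in Control, and Tedc1, of a tubulin complex of centrioles, averaged 14.0 ± 2.59 CPM in OcKO and 1.75 ± 1.56 CPM in Control (SD, n = 3 each). Ccdc30, a coiled-coil protein gene, stood at 15.4, 7.69 and 8.79 CPM in the OcKO libraries and 0, 2.39 and 2.49 CPM in the Control libraries, with 0 counts in Control replicate 1.

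Control levels were uneven for a part of the group. Of the 28 genes, 15 (53.6%) had at least 1 CPM in all 3 Control libraries, against 80.9% of all expressed genes, while 8 had it in 2 of them and 5 in 1. The 5 were Trim29, Kbtbd12, Sytl1, Xkr8 and Camk1g. Among the 20 genes with a Control mean under 5 CPM, 8 had 1 CPM in every Control library, against 35.3% of the 3546 other expressed genes under 5 CPM. In Control, 0 counts occurred in at least 1 library for 4 of the 28 genes (14.3%), Trim29, Kbtbd12, Gtf3c4 and Ccdc30, against 6.58% of all expressed genes. The 28 were thus less evenly detected in Control than expressed genes at large, whose median Control mean was 18.4 CPM. This did not hold among genes under 5 CPM, where the share of the group, 8 of 20, was slightly above the 35.3% of the others. The rule used the Control mean and the highest Control value, which at a given mean favours even genes. These comparisons are therefore descriptions, and nothing is read from them. The share with 0 counts was not compared at a matched level.

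In OcKO most of the 28 genes were lowest in replicate 2, though the order of the libraries was not the same for all. The rule used the lowest OcKO value of a gene, whichever library it came from. OcKO replicate 2 was the lowest OcKO library for 21 of the 28 genes (75.0%) and the highest for 1, while for the other 13210 expressed genes it was lowest in 35.9% and highest in 31.9%. OcKO replicate 1 was highest for 17 of the 28 (60.7%), against 29.7% of the other genes. With TMM scaling, which corrects for the composition of a library, OcKO replicate 2 was still lowest for 21 of the 28 and for 32.2% of the other genes. OcKO replicate 2 was also the deepest library, with 44575222 counts and 22393 genes with a count, against 19915 and 21251 genes in OcKO replicates 1 and 3. The part of depth in the order was not tested. Genes of 1 library are not independent, so the shares are given without a test.

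**Figure D4:**
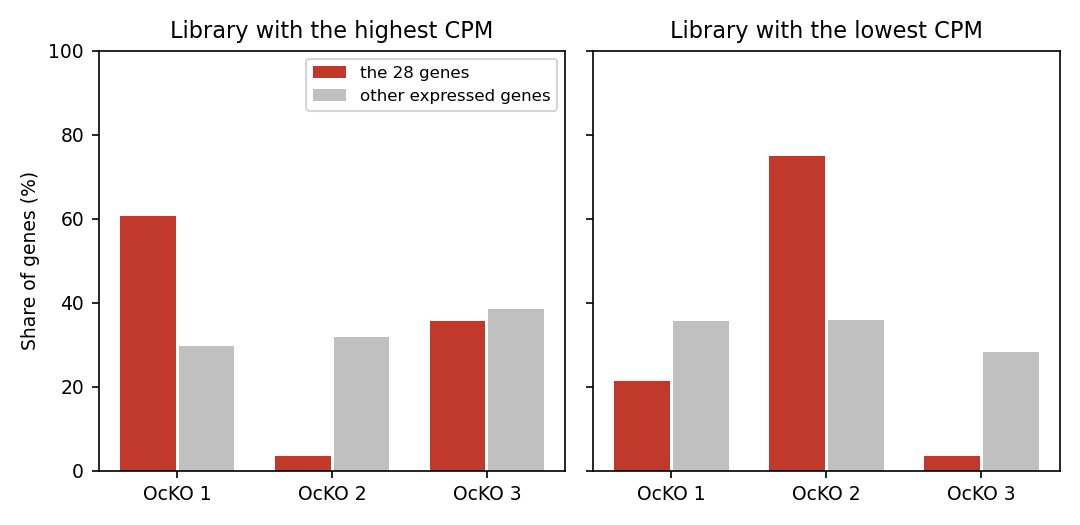
Share of genes (%) for which each OcKO library had the highest CPM (left) or the lowest CPM (right) of the 3 OcKO libraries. Red bars are the 28 genes and grey bars the other 13210 expressed genes. OcKO replicate 2 is lowest for 75.0% of the 28 genes and for 35.9% of the others.

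The OcKO libraries of a gene lay within 2-fold of each other for 16 of the 28 genes (57.1%) and for 54.1% of the other expressed genes. They lay over 3-fold apart for 2 of the 28, Plk2 and Camk1g, and for 25.1% of the others. The rule asked for a high lowest OcKO value, which favours even genes, so this contrast is a description.

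Overlap with other genes bears on some values, since the libraries do not mark the strand. In the deposited annotation 5 of the 28 genes share exon bases with another gene, or 17.9%, against 31.0% of expressed genes. For Ifitm10, Pik3r2 and Itpr3 the other genes were at or near 0 CPM in all libraries. Psph shares 452 bases, 10.4% of its exons, with Cct6a, a chaperonin subunit gene on the opposite strand, which stood at 54.6, 38.6 and 52.3 CPM in the OcKO libraries and 9.02, 5.48 and 19.4 CPM in the Control libraries. Gtpbp8 shares 517 bases, 14.7% of its exons, with Nepro, a nucleolar protein gene on the opposite strand, which stood at 9.81, 12.9 and 6.48 CPM in the OcKO libraries and 0, 1.26 and 3.30 CPM in the Control libraries. In both pairs the partner was higher in every OcKO library than in any Control library, and reads of a gene and its partner cannot be told apart within the shared bases. Neither partner passed the test across all genes, and neither did Psph (edgeR adjusted p = 0.150) or Gtpbp8 (edgeR adjusted p = 0.127). For Cct6a the log2 fold change was 1.94 (SE 0.48, edgeR adjusted p = 0.165), and for Nepro it was 2.52 (SE 1.48, edgeR adjusted p = 0.618).

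Among genes within 10 kb that reached 1 CPM in either group, 6 of 32 (18.8%) were higher in every OcKO library than in every Control library. Some neighbours entered through their OcKO level alone. Among the 27 with a Control mean of at least 1 CPM, 5 (18.5%) were in this state, against 11.8% of all expressed genes, which met the same minimum. Cct6a and Nepro are among the 5 and share exon bases with Psph and Gtpbp8, so they are not independent of the 28. With numbers this small, nothing is read from the difference. Besides Cct6a and Nepro, 4 neighbours were higher in every OcKO library than in every Control library. S100a14, next to S100a16 and like it an EF-hand gene, stood at 28.8, 31.8 and 28.2 CPM in the OcKO libraries and 19.4, 5.94 and 3.61 CPM in the Control libraries. Clic3, a chloride intracellular channel gene next to Ptgds, stood at 4.74, 2.31 and 5.57 CPM in the OcKO libraries and 0.292, 0.0242 and 0.683 CPM in the Control libraries. Jpt2 beside Cramp1l and Psmc2 beside Slc26a5 differed by 1.10-fold and 1.39-fold in the means. The edgeR adjusted p was 0.440 for S100a14 (log2 fold change 1.47, SE 0.62) and 0.338 for Clic3 (log2 fold change 3.48, SE 1.23), so neither was called. S100a16 and Ptgds were not called either (edgeR adjusted p = 0.109 for each). The neighbours were named after their values were seen.

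**Figure D5:**
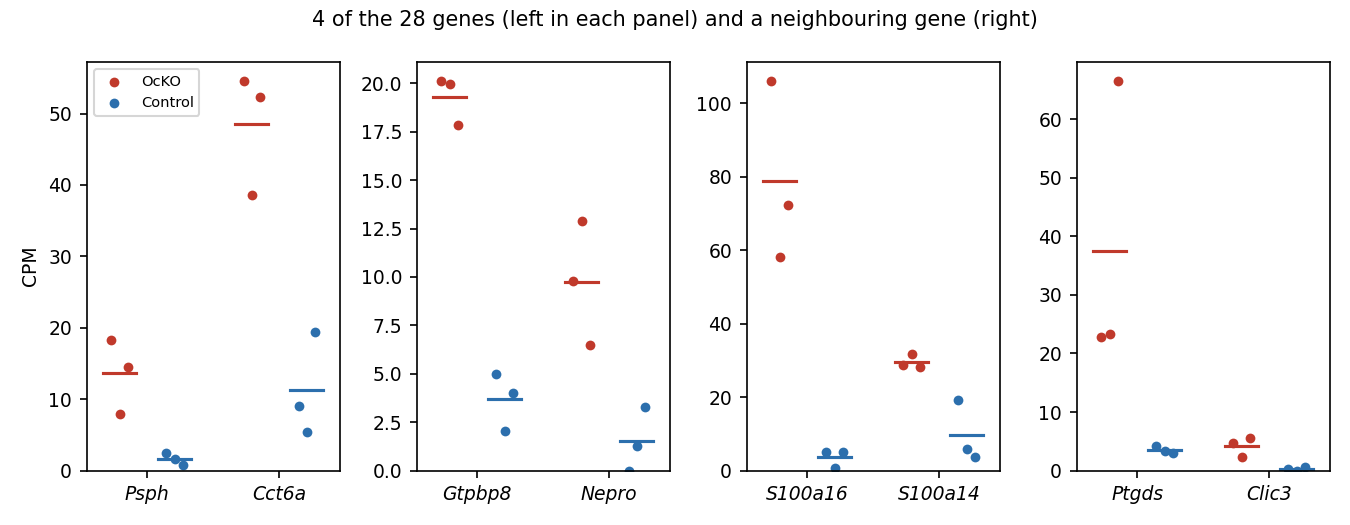
CPM of 4 of the 28 genes (left in each panel) and of a gene that overlaps it (Cct6a, Nepro) or lies within 10 kb (S100a14, Clic3; right in each panel). Points are libraries, red for OcKO and blue for Control, and lines are means of 3 libraries. In all 8 genes the OcKO points lie above the Control points.

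The 28 genes were close to expressed genes at large in size. All 28 are protein coding in GENCODE M21. They lie on 15 chromosomes, with at most 3 on any 1. The median exon length was 4159 bases, against 3758 bases over the 13238 expressed genes. The median number of merged exons was 10 against 9, and the median span in the genome 23176 against 23236 bases. The longest exon sum was that of Klhl20 (12847 bases) and the shortest that of Ms4a10 (1011 bases). Exon length bears on the rank by level: per kilobase of exon, the OcKO levels after Ms4a10 were 53.1 CPM per kb for Slc23a3, 48.8 for S100a16, 43.8 for Trim29 and 43.7 for Afg1l, and the lowest was 0.987 CPM per kb for Klhl20.

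In the edgeR fit across all genes, 4 of the 28 were called: Ms4a10, Afg1l, Wdr41 and Slc23a3. The share called over all genes was 0.137%, and since the rule used the same contrast nothing is read from this count. Their log2 fold changes were 5.00 (SE 0.48) for Ms4a10, 2.77 (SE 0.24) for Afg1l, 2.98 (SE 0.35) for Wdr41 and 2.62 (SE 0.27) for Slc23a3. The median log2 fold change of the 28 was 3.10, against 0.01 over all genes tested. The smallest SEs belonged to genes with even, well-counted Control libraries, and the largest to Kbtbd12 (1.75), Sytl1 (1.64) and Trim29 (1.58). The number called was 0, 1 and 0 without OcKO replicates 1, 2 and 3, and 2, 0 and 0 without Control replicates 1, 2 and 3. DESeq2, with the same filter, called 477 genes higher (2.99%) and 25 of the 28. It did not call Kbtbd12, Gtf3c4 or Ccdc30.

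Each library in turn was left out of the rule and then set against the genes that the other 5 libraries chose. Without OcKO replicate 2 the rule chose 76 genes, of which 71 (93.4%) were higher in OcKO replicate 2 than in any Control library and 28 (36.8%) over 3-fold higher. Without OcKO replicates 1 and 3 it chose 40 and 36 genes, with 38 and 36 of them on the same side in the library left out and 70.0% and 77.8% over 3-fold higher. In each of these choices the genes over 3-fold higher in the library left out are the 28 themselves. Without Control replicates 1, 2 and 3 it chose 54, 55 and 67 genes, of which 96.3%, 90.9% and 88.1% had every OcKO library above the Control library left out. These genes were chosen for a wide gap in the other libraries, so the shares are given as a description and nothing is read from them. The genes lost were Trim29, Kbtbd12, Sytl1 and Xkr8 without Control replicate 1, and Camk1g and Tedc1 without Control replicate 3, all through a Control mean under 1 CPM.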

How the data were processed

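The authors deposited raw counts of reads per gene for 6 libraries, as 1 table and as 1 file per sample, which differed in 0 values. The submitters' processing notes name Trimmomatic 0.36 for trimming, STAR 2.5.2b for alignment, the build GRCm38 and, for counting, featureCounts from Subread 1.5.2. Annotation release, strand setting and handling of multi-mapping reads were not given in the sources used here. Coordinates and exon lengths are those of the deposited files. Identifiers stood in for names in 174 genes.

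CPM is the count scaled to the library total, and values are means ± SD over 3 libraries. Each library is 1 mouse. The main test was edgeR 4.0.16 (quasi-likelihood, R 4.3.3), fitted on the counts of all 6 libraries with TMM scaling and filterByExpr, adjusted by Benjamini-Hochberg over 16060 genes, with calls at 0.05. The SE is the size of the log2 fold change divided by the root of F. DESeq2 1.42.0, limma 3.58.1 voom, other scalings and filters, a replicate block and leaving out each library were alternatives. A pair of libraries differed by at least 123 in chi-square per degree of freedom, so none was a duplicate. The edgeR script was tested on simulated counts. Recovery of changed genes and false calls had to pass only at a set spread between libraries, not at the spread of these data.

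The 28 genes and the gene lists were chosen with earlier results of these data known. The genes named with a value in every library are Rpa1, the 12 with the highest OcKO CPM per kb, the 12 with the largest and the 5 with the smallest ratio, the 5 just outside, the 8 with the smallest edgeR p and the members of a fixed list. Others are given as means or, for Xkr8, by library, and 1 of the 28 is counted but not reported here. Promoter windows and their sequences are from RefSeq (GRCm38.p6), and biotypes from GENCODE M21. Limits for 0 counts cover counting error only, as PCR copies were not marked by molecular identifiers.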

Additional observations from a re-analysis of the deposited data

How the results depend on the processing

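The number of genes chosen by the rule was 28 and moved with its settings: 100 at a fold of 2, 12 at a fold of 4, and 45, 17 and 8 at a minimum Control mean of 0.5, 2 and 5 CPM. It was 26 with TMM-scaled CPM and 26 with DESeq2 size factors, each with 24 of the 28, and 36 to 76 without 1 library. TMM lost Camk1g, Ccdc30, Slc26a5 and Plk2. Library size alone in place of TMM shifted the median of all genes by 0.17 (log2) towards OcKO. Genes called higher numbered 22 by edgeR, 64 at a minimum mean of 5 CPM, 477 by DESeq2, 0 by limma voom and 0 to 4 without 1 library. Genes called lower numbered 1 by edgeR, 8 at that minimum, 272 by DESeq2, 1 by limma voom and 0 to 2 without 1 library. Of the 28, 4 were called, 11 at that minimum, 25 by DESeq2, 0 by limma voom and 0 to 2 without 1 library. Of the p53 targets, 4 were called higher, 8 at that minimum, 15 by DESeq2, 0 by limma voom and 0 without any 1 library. At an unadjusted p under 0.05 limma voom had 1212 genes higher and 992 lower. The cause of these differences was not tested.

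With the replicate number as a block, edgeR called 0 genes higher, 0 lower, 0 of the 28 and 0 of the p53 targets, with 813 genes higher and 563 lower at an unadjusted p under 0.05. The numbers do not show pairing: same-numbered libraries had correlations of deviations of -0.06, -0.02 and -0.10, and 0 of 3 OcKO libraries correlated best with the Control library of its number. The median log2 fold change of the 28 was 2.83 to 3.34 over all alternatives. The refits covered the 28 genes, the 5 just outside and Rpa1. Of their values, 372 kept their side of the threshold, 35 lost a call, 35 gained 1, of which 22 by DESeq2, and 0 changed sign. The 28 and the 5 just outside were chosen with every OcKO value above every Control value. The choice thus fixed their sign, and nothing is read from it. Leaving out 1 library moved the fold of 12 of the 28 by over 1.5 times, for 6 of them Control replicate 1. Kbtbd12 reached a log2 fold change of 10.3 and Sytl1 9.48 without it, in place of 4.02 and 4.07.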

Other observations

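The rule turned round, with every Control library over 3 times every OcKO library, held for 14 genes. With the same names set aside it left 7, among them Rpa1. The minimum of 1 CPM stayed on the Control mean, so genes near 0 in OcKO could enter. The 7 genes were chosen on the same contrast, so they are given as values. Apln, which encodes the peptide apelin, stood at 0 CPM in all OcKO libraries and at 3.90, 0.169 and 2.59 CPM in the Control libraries. At these depths 0 counts allows up to 0.0673 to 0.0827 CPM per library (3 counts). Ano3, an anoctamin gene, stood at 0, 0.157 and 0 CPM in the OcKO libraries and 4.93, 7.13 and 2.57 CPM in the Control libraries. Tmem81 stood at 0.0711, 0.247 and 0.331 CPM in the OcKO libraries and 2.12, 5.02 and 3.22 CPM in the Control libraries, and Fndc9 at 0, 0.808 and 0.689 CPM in the OcKO libraries and 2.89, 3.70 and 6.91 CPM in the Control libraries. Apart from Rpa1, the 7 genes had Control means of 2.22 to 6.04 CPM, low like those of most of the 28. The choice itself may favour genes of low level, so nothing is read from this. Genes set aside by name are not covered.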
